A study of Mus musculus with 2 samples.

Results

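The potassium channel genes described here were all autosomal protein-coding mouse genes whose symbol begins with Kcn in GENCODE M21, 92 of 20807 autosomal protein-coding genes, in 21 subfamilies by symbol prefix. They were read in peak lists of open chromatin from the embryonic heart, and a list of 20 genes known for currents of heart muscle was compared with the other 72 genes, subfamily by subfamily. The list groups genes by the current they are known to carry in mammalian heart muscle. Of the 21 subfamilies, 10 have a gene on the cardiac list.

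Accessible chromatin was profiled with ATAC-seq, in which a transposase places sequencing adapters into open DNA, in whole hearts of wildtype (WT) FVB mouse embryos at E11.5. The single group comprised 2 replicates, and each replicate was made from nuclei of a pair of hearts, without transgene or treatment. The measurements are a ratio called fold enrichment, the height of a peak of reads over a genome-wide background, which the authors' peak caller gave separately in each replicate. A shared region is a stretch covered by peaks of both replicates, a promoter region is a shared region within 1 kb of a protein-coding transcript start, and the locus is the gene body plus 50 kb on each side. Values of a region are those of the highest overlapping peak in replicate 1 and replicate 2, in that order. With 1 group and 2 replicates no difference was tested, so counts and medians are set beside the same quantity over all autosomal protein-coding genes, and fold enrichments of a pair of promoters were called apart only where the ranges of their 2 replicates did not overlap.

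Potassium channels let potassium leave or enter a cell along its electrochemical gradient, and in heart muscle they end the action potential and hold the resting potential. Voltage-gated channels (subfamilies Kcna, Kcnb, Kcnc, Kcnd, Kcnq and Kcnh) open on depolarization, inward rectifiers (Kcnj) set the resting potential or answer to acetylcholine and ATP, tandem-pore channels (Kcnk) carry background current, and Kcnn and Kcnma1 channels respond to calcium. Further members form no pore of their own that conducts and instead modify other channels: Kcne, Kcnip, Kcnab and Kcnmb encode accessory subunits, and Kcnf, Kcng, Kcns and Kcnv encode electrically silent voltage-gated subunits.

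Replicate 1 had 118027 peaks and replicate 2 had 114783, which left 96639 shared regions on autosomes with a median length of 388 bp and a median mean fold enrichment of 6.28. The lists carry no total of reads, so the depth behind a value is unknown and no counting interval was given. Promoter regions were present at 7 of 7 cardiomyocyte markers, 4 of 4 pacemaker, 4 of 4 endocardial and endothelial, 3 of 3 epicardial, 3 of 3 cushion mesenchyme and 2 of 2 blood markers. They were present at 0 of 3 hepatocyte markers, 1 of 3 skeletal muscle markers and 1 of 4 neuronal markers, the synaptic vesicle gene *Syt1*. As 67.8% of all genes had a promoter region, its presence at a marker does not show the cell type. The samples were whole hearts, and few cells with an open site cannot be told apart from weak opening in many cells.

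A promoter region was found at 72 of 92 potassium channel genes (78.3%), against 67.8% of all autosomal protein-coding genes. All 20 cardiac channel genes had a promoter region, as did 52 of the other 72 (72.2%). The full count depended on the list: with 6 genes added to it, 25 cardiac genes had a region and the added *Kcne4* did not. A mean fold enrichment of 10 or more was reached by 43 of 92 channel genes (46.7%), against 57.2% of all genes, by 13 of 20 cardiac genes and by 30 of the other 72. With q-values up to 1e-10 a promoter region was left at 16 of 20 cardiac genes and 44 of the other 72 (61.1%), against 62.8% of all genes. The other channel genes then had about the share of all genes. The comparison also changed with the number of annotated starts. Among genes with 1 start, 21 of 26 other channel genes (80.8%) had a region, against 56.5% of all genes. With 2 or 3 starts it was 23 of 34 (67.6%) against 67.4%, and with 4 or more starts it was 8 of 12 (66.7%) against 88.8%. The cardiac counts in these classes were 6 of 6, 10 of 10 and 4 of 4. Counting genes without a promoter region as 0, the median promoter fold enrichment was 13.5 for cardiac channel genes, 8.56 for the other channel genes and 14.9 for all genes. The cardiac median lay below that of all genes although every cardiac gene had a region.

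Both replicates ranked the channel promoters alike, with a Spearman rho of 0.955 across the 72 promoters, which are not independent replicates. Replicate 1 was higher at 54 of the 72, the ratio of replicate 1 to replicate 2 had a median of 1.13 and ran from 0.744 to 2.02, and 6 promoters differed by more than 1.5-fold. The summits of the replicates lay a median of 54 bp apart. Across all 96639 autosomal shared regions the replicates were less alike, with a rho of 0.770 and a ratio from 0.0545 to 18.4.

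**Figure D1:**
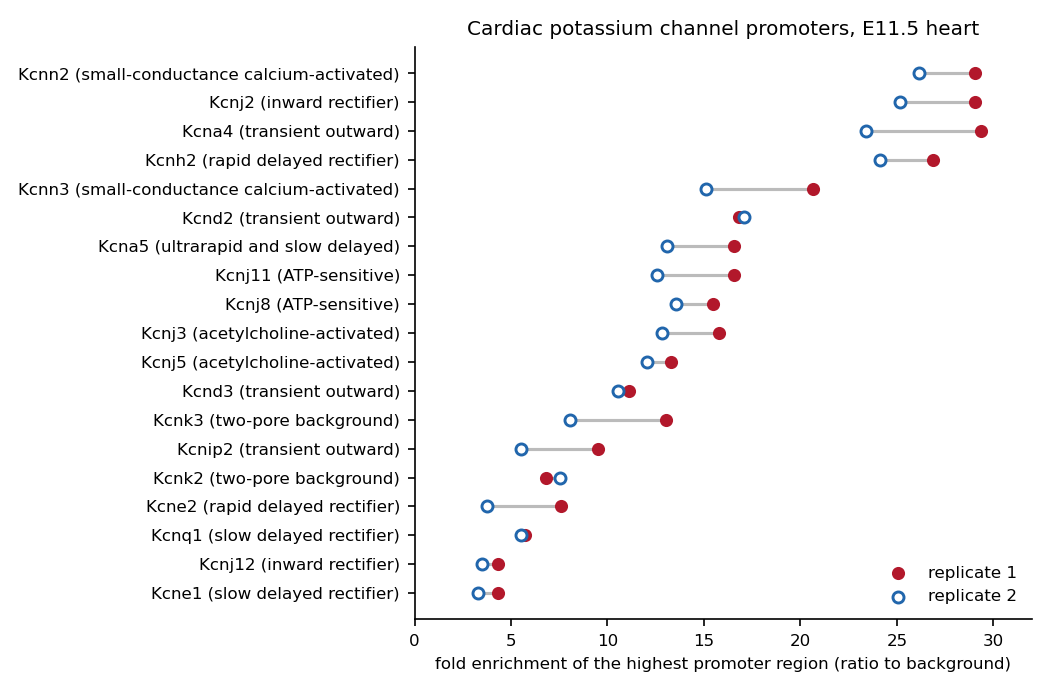
Fold enrichment of the highest promoter region of 19 of the 20 cardiac potassium channel genes, on the horizontal axis as a ratio to background, with filled points for replicate 1, open points for replicate 2 and a line joining them. *Kcnn2*, *Kcnj2*, *Kcna4* and *Kcnh2* lie above all others in both replicates, and *Kcnj12* and *Kcne1* lie lowest.

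Among cardiac channel genes the promoters are described as a leading set of 4 genes, a long middle and a low end. Only the leading set was apart from every other cardiac gene. *Kcnn2*, a small-conductance calcium-activated channel, reached 29.1-fold over background in replicate 1 and 26.1-fold in replicate 2. *Kcnj2*, which encodes the main inward rectifier of ventricular muscle, had 29.1 and 25.1. *Kcna4*, which carries a slowly recovering transient outward current, had 29.3 and 23.4, and *Kcnh2*, the pore subunit of the rapid delayed rectifier, had 26.9 and 24.1. The ranges of these 4 overlapped one another, and the lowest of their 8 values was above every value of the other 16 cardiac genes. *Kcnn3*, another small-conductance channel, followed with 20.6 and 15.1, and its range overlapped that of *Kcnd2*, a pore subunit of the fast transient outward current, with 16.8 and 17.1.

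The middle of the order was held by the ultrarapid, ATP-sensitive and acetylcholine-activated channels. *Kcna5*, the ultrarapid delayed rectifier, had 16.6 and 13.1. The ATP-sensitive pore genes *Kcnj11* and *Kcnj8* had 16.6 and 12.6, and 15.5 and 13.6. The acetylcholine-activated pore genes *Kcnj3* and *Kcnj5*, whose products assemble into the atrial and nodal channel, had 15.8 and 12.8, and 13.3 and 12.1. Neighbors within these 5 overlapped in the order, although *Kcnj5* was apart from *Kcnj8*. As a set they were apart from *Kcnd2* above and from *Kcnd3* below, but not from genes further along the order. The range of *Kcnn3* (20.6 and 15.1) overlapped those of *Kcna5*, *Kcnj11*, *Kcnj8* and *Kcnj3*. That of *Kcnk3* (13.04 and 8.04) overlapped those of *Kcnj11*, *Kcnj3* and *Kcnj5*.

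Below them, a run of overlapping promoters began with *Kcnd3*, the other fast transient outward subunit, at 11.1 and 10.6. The tandem-pore gene *Kcnk3* had 13.04 and 8.04 and *Kcnk2*, a mechanically gated channel of the same subfamily, had 6.79 and 7.54. *Kcnip2*, the accessory subunit of the transient outward channel, had 9.51 and 5.53, so its promoter was lower than those of its partner pores *Kcnd2* and *Kcnd3* in both replicates. *Kcne2* had 7.61 and 3.77, and *Kcnq1*, the pore of the slow delayed rectifier, had 5.70 and 5.53.

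The low end held *Kcnj12*, another ventricular inward rectifier, with 4.35 and 3.52, and *Kcne1*, the accessory subunit of *Kcnq1*, with 4.35 and 3.27. Both lay apart from *Kcnq1* above them and overlapped each other. The range of *Kcne2* (7.61 and 3.77) overlapped both, so the low end was not apart from the genes above it. Of the 19 neighboring pairs in the whole order, 15 overlapped and 4 were apart. The cardiac genes without a promoter region with q-values up to 1e-10 were *Kcne1*, *Kcne2*, *Kcnj12* and *Kcnq1*. The presence of a region at all 20 cardiac genes thus included 4 weakly enriched promoters.

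Where a gene had several starts, the leading region was not always at the outermost start. *Kcnn2* had 23.1 and 18.1 at its outermost start and its highest values at an inner start, with a summit 289.6 kb along the gene. *Kcnk2* had 5.16 and 4.02 at its outermost start and its highest values at an inner start, with a summit 58.5 kb along the gene. *Kcne2* had no shared region within 1 kb of its outermost start, and its only promoter region lay at an inner start, with a summit 3.1 kb along the gene. Restricting the count to the outermost start left 19 of 20 cardiac genes and 49 of 72 others with a region, against 64.6% of all genes. *Kcnh2* had a region at both of its starts, of 26.9 and 24.1 at chr5:24350891-24353842 and of 17.1 and 15.8 at chr5:24329179-24330379, the start of its shorter transcript.

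The sequences upstream of 3 cardiac promoters show how unlike these starts were in base composition. Each is the run of 200 bases just before a RefSeq start on GRCm38.p6, 5′ to 3′ on the strand of the gene, with every CpG dinucleotide in capitals. They were chosen as a strong promoter of the leading set, a promoter of the middle and a weak promoter without a CpG. Of the 92 channel genes, 68 matched the RefSeq promoter table.
*Kcnj2*, chr11:111065964-111066163 (+): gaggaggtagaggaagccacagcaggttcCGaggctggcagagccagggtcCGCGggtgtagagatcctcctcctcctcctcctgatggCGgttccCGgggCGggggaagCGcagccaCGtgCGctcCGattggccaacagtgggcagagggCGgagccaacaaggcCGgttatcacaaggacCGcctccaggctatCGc
*Kcna5*, chr6:126535556-126535755 (-): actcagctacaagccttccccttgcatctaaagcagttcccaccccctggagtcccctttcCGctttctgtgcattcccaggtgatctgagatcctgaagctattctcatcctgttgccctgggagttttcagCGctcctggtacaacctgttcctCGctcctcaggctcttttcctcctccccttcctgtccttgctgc
*Kcne2*, inner start, chr16:92295416-92295615 (+): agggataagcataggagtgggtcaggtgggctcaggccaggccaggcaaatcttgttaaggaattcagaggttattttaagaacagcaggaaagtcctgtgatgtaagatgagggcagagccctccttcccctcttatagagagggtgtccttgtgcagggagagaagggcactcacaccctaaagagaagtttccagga

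These stretches hold 14, 3 and 0 CpG dinucleotides, with fold enrichments of 29.1 and 25.1, 16.6 and 13.1, and 7.61 and 3.77. The 3 promoters were not a rule for the rest, and no correlation of CpG content with accessibility was computed. A start was called CpG-rich where 1 kb centred on the outermost start had at least 50% GC and a CpG observed over expected ratio of at least 0.6. By this measure 45.7% of all genes, 7 of 20 cardiac channel genes and 28 of the other 72 were CpG-rich. *Kcnj2* was not, with a ratio of 0.43, and neither was *Kcna4*, with 0.45, although both had leading promoters at that start. The outermost start of *Kcnn2* had a ratio of 0.58, which does not describe its highest promoter region at the inner start. *Kcnj12* had the highest ratio of the cardiac genes, 0.92, and the second lowest promoter.

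Among genes without a CpG-rich start, a promoter region was present at 44.8% of all genes, at 29 of 44 other channel genes (65.9%) and at 13 of 13 cardiac channel genes. Among genes with a CpG-rich start, a promoter region was present at 95.0% of all genes, at 23 of 28 other channel genes (82.1%) and at 7 of 7 cardiac genes. The share of channel genes with a region was thus above that of all genes where the start was not CpG-rich, and for the other channel genes it was below that of all genes where it was.

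**Figure D2:**
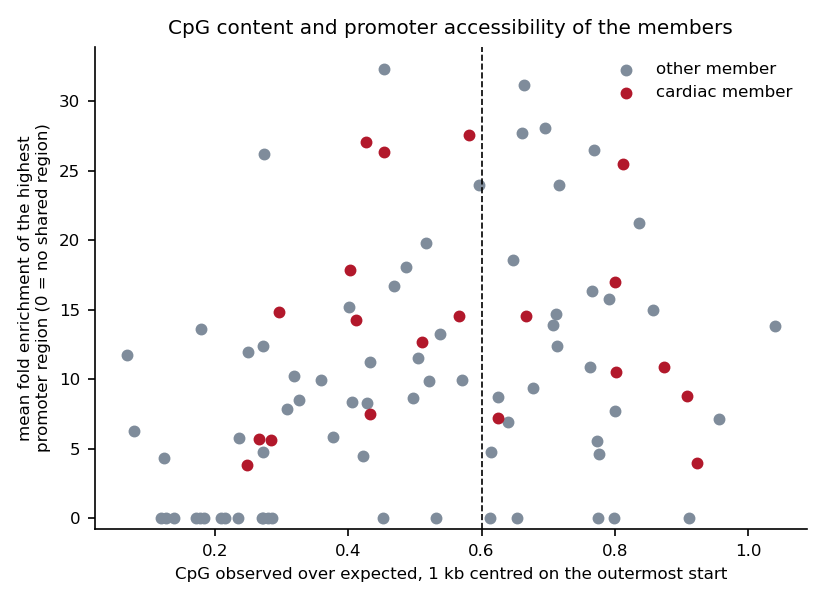
CpG observed over expected in 1 kb centred on the outermost start (horizontal axis, a ratio) against the mean fold enrichment of the highest promoter region (vertical axis, 0 where no region was shared) for the 92 potassium channel genes, with cardiac genes in red, other genes in gray and a dashed line at 0.6 (the GC limit is not drawn). Cardiac genes with values above 25 occur on both sides of the line, and gray points at 0 lie mostly to its left.

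By subfamily, a cardiac gene and its relatives differed most in the inward rectifiers. All 6 cardiac Kcnj genes had a promoter region, against 3 of the other 9, which were *Kcnj10*, a glial channel, with 19.8 and 17.3, *Kcnj4* with 5.43 and 3.77, and *Kcnj15* with 4.62 and 4.02. The Kcnk subfamily had 2 of 2 cardiac and 7 of 12 other genes with a region. In Kcna the counts were 2 of 2 and 5 of 6, in Kcne 2 of 2 and 1 of 2, and in Kcnq 1 of 1 and 3 of 4. In Kcnh, Kcnip and Kcnn every gene had a region whether cardiac or not, 8, 4 and 4 genes, and both Kcnd genes are on the cardiac list. Of the other genes in subfamilies with a cardiac member, 32 of 46 (69.6%) had a region, and of those in subfamilies without, 20 of 26 (76.9%). The other 46 relatives of cardiac genes thus had a region at about the share of all genes, 67.8%.

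**Figure D3:**
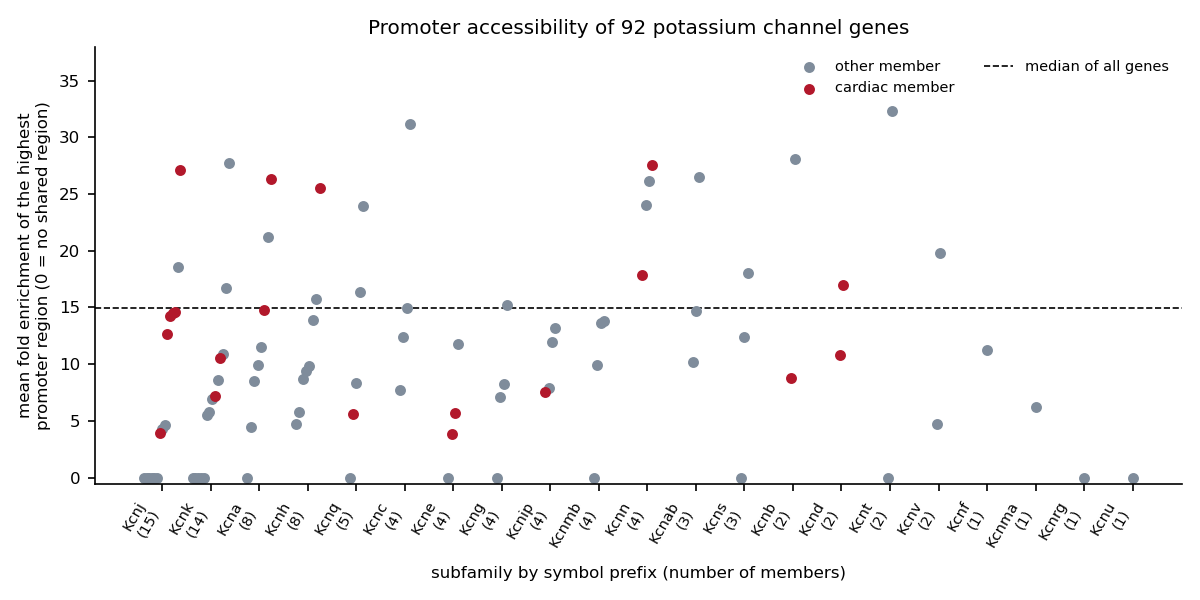
Mean fold enrichment of the highest promoter region (vertical axis, 0 where none was shared) of each of the 92 potassium channel genes, grouped by subfamily prefix with the number of genes in brackets, with cardiac genes in red and other genes in gray and the median of all genes, 14.9, as a dashed line. Every red point lies above 0, while the gray points at 0 gather in Kcnj and Kcnk.

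The highest promoter was not that of a cardiac channel. *Kcnt2*, a sodium-activated channel, had 33.4 and 31.2, above every cardiac channel gene in each replicate. *Kcnb2*, a delayed rectifier, had 28.5 and 27.7, a range within that of the leading cardiac promoters. The tandem-pore gene *Kcnk5* had 25.3 and 30.2. *Kcnab2*, which encodes an accessory beta subunit, had 30.2 and 22.9, and its promoter region was also within 1 kb of a start of *Nphp4*, the only channel promoter shared with another protein-coding gene.

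The remaining calcium-activated genes of the Kcnn subfamily were also among the 10 highest, *Kcnn4* with 24.7 and 27.7 and *Kcnn1* with 23.4 and 24.6. All 4 Kcnn genes thus exceeded 10 in both replicates, and their lowest value was 15.1. *Kcnq5*, a neuronal M-current channel, had 25.5 and 22.4, the lymphocyte channel *Kcna3* had 22.8 and 19.6, and the silent subunit *Kcnv1* had 21.2 and 18.4. Across classes of product, a promoter region was present at 59 of 76 genes of pore-type subunits, which include 8 of 10 silent ones, and at 13 of 16 genes of accessory and regulatory proteins. These shares, 77.6%, 80.0% and 81.2%, were close to one another and to that of all channel genes, beside 67.8% of all genes.

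No promoter region was shared at 20 channel genes, none of them cardiac. Of these, 13 had no promoter peak in either replicate. A peak in replicate 1 only was present at *Kcnk15* (4.35), *Kcnk4* (5.43), *Kcns1* (4.62) and *Kcnt1* (5.43), and a peak in replicate 2 only at *Kcnj16* (3.77), *Kcnj6* (4.27) and *Kcnj9* (3.77). These 7 values were all in the range of the weakest called promoters. The genes without a peak in either included the renal channel *Kcnj1*, the sensory neuron channel *Kcnk18* and the sperm channel *Kcnu1*. Just inside the 1 kb limit lay *Kcnj4* at 518 bp from a start, *Kcna7* at 572 bp (5.16 and 3.77) and *Kcnh8* at 737 bp (5.43 and 4.02). No channel gene had its nearest region between 1 and 2 kb from a start, and the next beyond was the accessory gene *Kcne4*, at 2119 bp (14.1 and 11.8).

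Genes known to work with these channels were read the same way. Of 10 such partner genes, 9 had a promoter region and 5 of them a mean of at least 10. *Akap9*, which anchors kinases to the slow delayed rectifier, had 31.8 and 37.0. The sulfonylurea receptor genes differed: *Abcc9*, the partner of *Kcnj8* next to it on chromosome 6, had 12.5 and 10.6, and *Abcc8*, the partner of *Kcnj11* next to it on chromosome 7, had 4.62 and 4.78. For the transient outward channel, *Dpp6* had 17.4 and 16.8 and *Dpp10* had 7.61 and 8.30. *Amigo1*, an adhesion protein that binds voltage-gated channels, had 15.8 and 21.1. Of the BK channel partners, *Lrrc38* had 11.4 and 11.8, *Lrrc52* 8.69 and 7.29, *Lrrc55* 5.70 and 7.79, and *Lrrc26* had no promoter region. The BK pore gene *Kcnma1* itself had 6.25 and 6.28.

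At least 1 shared region lay in the locus of 90 of 92 channel genes (97.8%), against 89.3% of all genes. The exceptions were *Kcnj13* and *Kcnt1*, with 0 regions each. A distal region, more than 1 kb from every protein-coding start, lay in the body of 60 channel genes (65.2%), against 44.8% of all genes, with 16 of 20 cardiac genes and 44 of the other 72. Channel gene bodies were longer than usual, with a median of 34.6 kb for cardiac, 29.5 kb for other channel genes and 17.6 kb for all genes, so densities are given per 100 kb of locus. In bodies under 25 kb, 50.0% of cardiac, 41.2% of other channel genes and 24.0% of all genes had a distal region in the body. From 25 to 100 kb the shares were 100%, 63.6% and 67.5%, and over 100 kb they were 100%, 100% and 95.2%.

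The median density was 8.01 regions per 100 kb for cardiac channel genes, 4.38 for the other channel genes and 5.62 for all genes. Densities of both channel groups overlapped widely, from 0.904 to 18.2 for the cardiac genes and from 0 to 19.8 for the others. With q-values up to 1e-10 the medians fell to 3.80, 2.11 and 2.83, in the same order. For distal regions alone the medians were 6.55, 3.61 and 3.32. In gene bodies under 25 kb the median density was 9.36 for 8 cardiac genes, 6.55 for 34 others and 5.79 for all genes, and from 25 to 100 kb it was 9.48, 4.48 and 5.72 for 5, 22 and 6039 genes. Over 100 kb it was 4.45 for 7 cardiac genes, 2.65 for 16 others and 4.73 for all genes. The cardiac median was above that of the other channel genes in each class and above that of all genes in the shorter classes only.

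**Figure D4:**
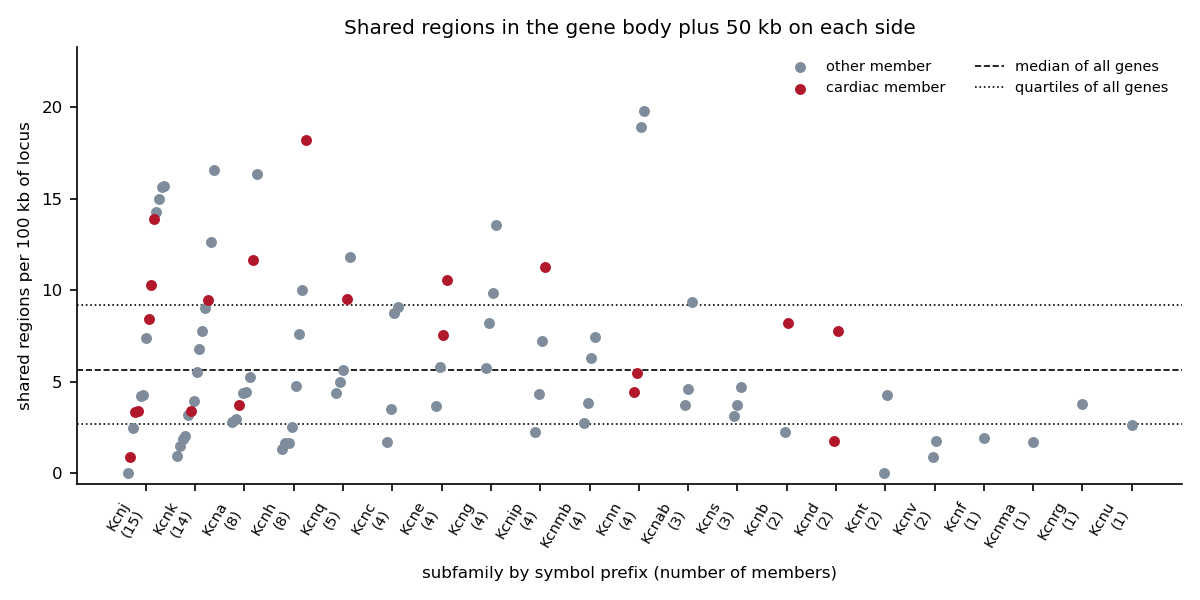
Shared regions per 100 kb of locus (vertical axis) for each of the 92 potassium channel genes by subfamily prefix, with cardiac genes in red, other genes in gray, the median of all genes (5.62) as a dashed line and their quartiles (2.69 and 9.17) as dotted lines. *Kcnh2* stands highest of the cardiac genes at 18.2 and *Kcnj2* lowest at 0.904, and *Kcnn1* and *Kcnn4* stand highest of the others.

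The number of surrounding regions differed widely among the cardiac genes. The locus of *Kcnj2*, with a promoter in the leading set, held 1 shared region, the promoter region itself of 2071 bp, in 50 kb on each side of a gene at chr11:111066164-111076821. With peaks of replicate 1 alone its density was 1.81 per 100 kb in place of 0.904. *Kcna4*, also in the leading set, had 4 regions (3.71 per 100 kb). *Kcnd2*, whose body spans 514303 bp, had 11 regions (1.79 per 100 kb). *Kcnq1*, with a promoter of only 5.70 and 5.53, had 40 regions (9.51 per 100 kb), the most of all channel genes, and 26 of them were distal regions inside its body (chr7:143106362-143427042).

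*Kcnh2* combined a strong promoter with a dense locus, 24 regions in 132016 bp or 18.2 per 100 kb, higher than 97.5% of all genes. Of these, 17 were distal and 9 of the distal ones lay in the gene body (chr5:24319589-24351604). *Kcnj5* had 18 regions (13.9 per 100 kb) and *Kcnd3* had 25 (7.77 per 100 kb). *Kcna5* had 12 regions (11.7 per 100 kb), 10 of them distal and none of the 10 above a mean of 7.47. *Kcnip2* had 14 (11.3 per 100 kb) and *Kcnn2* 23 (4.45 per 100 kb). These densities depended on the threshold: with q-values up to 1e-10 they were 10.6 for *Kcnh2*, 4.28 for *Kcnq1*, 4.03 for *Kcnip2*, 3.89 for *Kcna5*, 4.63 for *Kcnj5*, 4.66 for *Kcnd3*, 1.35 for *Kcnn2* and 0.814 for *Kcnd2*, against a median of 2.83 for all genes. With flanks of 100 kb the density was 6.69 for *Kcnip2* and 6.41 for *Kcna5*, and with flanks of 20 kb it was 6.27 for *Kcna4* and 1.97 for *Kcnj2*.

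Among the other channel genes, the calcium-activated *Kcnn1* and *Kcnn4* had the densest loci. *Kcnn1* had 24 regions (19.8 per 100 kb), of which 10 were at promoters of other genes, and *Kcnn4* had 22 (18.9). *Kcnk7* followed with 17 regions (16.5), *Kcna7* with 17 (16.3), *Kcnj10* with 19 (14.3), *Kcng2* with 23 (13.6) and *Kcnk6* with 14 (12.7). *Kcnj14*, *Kcnj9* and *Kcnj1* had 17, 17 and 19 regions (15.7, 15.6 and 14.996) and no promoter region of their own. When regions at starts of other protein-coding genes were left out, the median density became 7.44 for cardiac genes, 4.02 for other channel genes and 3.87 for all genes, so the other channel genes then lay above all genes rather than below.

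**Figure D5:**
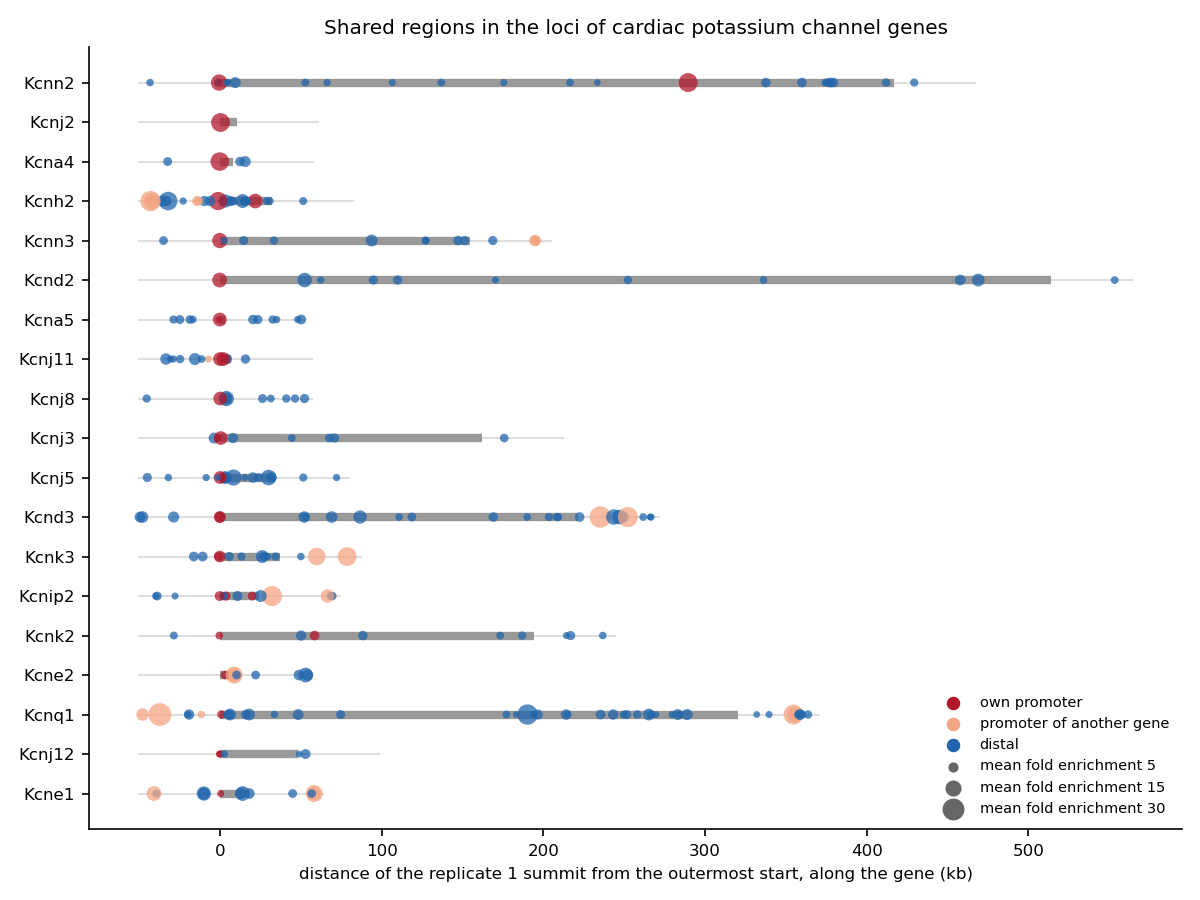
Positions of shared regions in the loci of 19 of the 20 cardiac potassium channel genes, as the distance of the replicate 1 summit from the outermost start along the gene in kb, with thick bars for gene bodies, thin lines for the 50 kb flanks, color for the kind of region and area for mean fold enrichment. *Kcnj2* shows a single point, *Kcnq1* shows 40 and *Kcnd2* shows few points along the longest body.

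The loci of all channel genes held 951 distinct regions, of which 711 were distal. Some genes lie close enough to share them: the loci of *Kcnj9* and *Kcnj10* had 16 regions in common, those of *Kcnj1* and *Kcnj5* 12, those of *Kcne1* and *Kcne2* 7, and those of *Kcnip1* and *Kcnmb1* 7. Counts of these pairs are not independent. Of the distal regions counted per gene, 50.0% in cardiac loci and 39.5% in other loci lay in introns, and 21.4% and 26.6% lay in the upstream flank.

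The strongest distal region of any channel locus lay on a coding exon of *Kcnn4*, at chr7:24376526-24378403, with 37.2 and 39.7, above its own promoter in both replicates. The next was in an intron of *Kcnq1*, at chr7:143294875-143296995, with 30.2 and 33.4, 190.3 kb along the gene. It lay within 1 kb of the annotated start of *Kcnq1ot1*, the antisense transcript known for imprinting of this domain, so it was distal only with respect to protein-coding starts. Leaving it aside, the highest distal region of *Kcnq1* had 13.04 and 8.30. The highest distal region in the locus of *Kcnh2*, with 24.2 and 28.9, lay 32 kb upstream on an exon of the neighboring nitric oxide synthase gene *Nos3*, within 1 kb of the start of the antisense gene *Gm15587*, and the highest inside the *Kcnh2* body, in an intron, had 18.5 and 11.1.

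Among the other channel genes, the *Kcnrg* locus had a region of 24.4 and 25.4 within 1 kb of a start of the noncoding gene *Dleu2*, *Kcnip1* an intronic region of 21.2 and 25.6, and *Kcns3* an intronic region of 24.4 and 22.4. *Kcng2* had an intronic region of 26.1 and 20.1. The locus of *Kcnj9* and *Kcnj10* shared regions of 19.6 and 22.9 and of 19.01 and 21.1. A flank region of *Kcnk7* had 17.4 and 22.9.

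For *Kcnj5*, *Kcnd2* and the pair *Kcne1* and *Kcne2* the highest distal region is shown by sequence, because these regions were strong in both replicates, overlapped no annotated exon and held a letter match to a factor of heart development. Each line is the GRCm38 plus strand from 100 bases before to 100 bases after the replicate 1 summit, with matches in capitals on either strand. The reference is C57BL/6J and the embryos were FVB.
*Kcnj5* intron, chr9:32335857-32336057: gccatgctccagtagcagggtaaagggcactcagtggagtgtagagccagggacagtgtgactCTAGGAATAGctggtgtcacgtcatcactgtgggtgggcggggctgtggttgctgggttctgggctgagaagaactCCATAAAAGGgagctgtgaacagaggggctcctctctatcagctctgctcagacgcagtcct
*Kcnd2* intron, chr6:21267849-21268049: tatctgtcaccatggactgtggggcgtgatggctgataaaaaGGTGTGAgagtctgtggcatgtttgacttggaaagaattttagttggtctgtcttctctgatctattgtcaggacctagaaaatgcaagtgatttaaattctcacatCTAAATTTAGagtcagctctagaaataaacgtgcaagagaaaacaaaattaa
*Kcne1* and *Kcne2*, between the genes, chr16:92345277-92345477: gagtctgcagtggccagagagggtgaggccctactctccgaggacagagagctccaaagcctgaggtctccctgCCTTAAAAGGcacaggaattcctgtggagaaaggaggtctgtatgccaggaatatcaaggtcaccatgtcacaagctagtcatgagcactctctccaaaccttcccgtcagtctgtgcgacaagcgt

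The *Kcnj5* region, 8.4 kb along the gene and also in the locus of *Kcnj1*, had a fold enrichment of 20.4 and 20.1, above the *Kcnj5* promoter in both replicates. Its capitals mark a MEF2 match and a CArG box, the site of serum response factor, in that order. The *Kcnd2* region, 52.4 kb along the gene, had 19.3 and 13.6, a range that overlapped that of its promoter, with a T-box match and then a MEF2 match. The region between *Kcne1* and *Kcne2*, at chr16:92345122-92345693, had 19.3 and 14.3, above the promoter values of both genes in each replicate, with a CArG box. It was the only distal region printed that lay in the locus of a pair of cardiac genes.

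Further highest distal regions of cardiac loci were spread over introns and flanks. That of *Kcnd3* had 18.7 and 17.8 at 243.7 kb, in the flank past its end and nearest to the start of *Ddx20*. *Kcnk3* had 15.2 and 10.6 in an intron, *Kcnj11* had 12.8 and 9.30 within its neighbor *Abcc8*, *Kcnn2* had 11.4 and 7.29, and *Kcnn3* had 11.1 and 10.6. *Kcnip2* had 10.9 and 11.3, *Kcnj3* had 10.1 and 8.55 at 3.6 kb before its start, *Kcna4* had 9.51 and 9.05 and *Kcnk2* had 9.24 and 7.04. The lowest were *Kcna5* with 8.15 and 6.79 and *Kcnj12* with 6.79 and 8.30. *Kcnj2* had no distal region in its locus. The highest distal region was above the own promoter in both replicates at 10 of the 20 cardiac genes, among them *Kcnj5*, *Kcne1*, *Kcne2*, *Kcnq1*, *Kcnd3*, *Kcnk3*, *Kcnip2* and *Kcnj12*, and 1 region counts for *Kcne1* and *Kcne2* together. Of the other channel genes with a promoter region, 23 of 52 (44.2%) had such a distal region, against 19.5% of all genes with a promoter region. The difference between these shares was not tested.

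The motif letters searched were AGATAA for GATA factors, GGAATG for TEAD, GGTGTGA for T-box factors, TNAAGTG for NKX2, TGANTCA for AP-1, CTA and TAG with any 4 bases between them for MEF2, AGCACC and GGACAG with any 2 bases between them for the repressor REST, CCA, AG and GGC with any 2 bases in each gap for CTCF and the CArG box by name, on both strands within 100 bases of the replicate 1 summit. The matches printed in the sequences do not overlap one another. GATA matches were present in 18.6% of 215 distal regions of cardiac channel loci, 21.5% of 506 of other channel loci and 19.9% of all distal shared regions. T-box matches were present in 4.65%, 2.37% and 3.42%, MEF2 matches in 5.12%, 7.31% and 4.85%, and NKX2 matches in 9.77%, 10.1% and 12.96%. TEAD matches were present in 14.0%, 12.5% and 16.2%, and CArG boxes in 1.395%, 1.98% and 1.30%. In cardiac loci these shares rest on 10 regions for T-box, 11 for MEF2 and 3 for the CArG box, and the differences were not tested. As any 4 middle bases were allowed, the MEF2 shares can include stretches outside the MEF2 consensus. For comparison, AP-1 matches were present in 7.44%, 6.32% and 9.50%, CTCF in 6.51%, 7.91% and 5.07%, and REST in 0.465%, 0.593% and 0.131%, which are 1 and 3 regions in the channel loci.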

How the data were processed

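ATAC-seq peak lists of WT FVB hearts at E11.5 were analysed in 2 replicates of paired hearts. Per the methods, the authors trimmed reads with Trim Galore 0.6.6 and Cutadapt, aligned them to GRCm38/mm10 with Bowtie2 2.4.2, removed duplicates and poorly mapping reads with SAMtools 1.12, and called peaks per replicate with MACS2 without local background. The largest p-values and the shortest peaks in the lists do not match the p-value limit and extension length of those methods, so the exact calling threshold is uncertain, and with it what a missing region means. Filtering on mapping quality underrepresents repeated sequence. For each summit the deposited lists hold a fold enrichment (a ratio), a −log10 p-value, a −log10 q-value and a score, which is the −log10 q value as a whole number after scaling. Depth is unknown, since the lists hold no read totals, and 2 replicates limit the precision.

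Shared regions were made with bedtools 2.31.1 (overlap of at least 1 bp, trimmed to the common part and merged where they touch), so a broad peak facing several peaks gives several regions that carry its value. Starts and bodies came from GENCODE M21, and promoter sequences from RefSeq (GRCm38.p6). Counts and medians were described over genes, without a test. Each gene was named by rule: all cardiac members, the 10 other members with the highest promoters and the 10 with the densest loci, members with a promoter peak in 1 replicate, the 15 strongest distal regions, the strongest of each cardiac member, 10 partner genes and members near the 1 kb limit. *Kcnj13*, *Kcnj15*, *Kcnma1* and the members without a promoter peak that are listed by name were added after their values were seen. Some members and regions that the rule names are not reported here. The members and lists were chosen with earlier results of these data known. Results were recomputed with single replicates, with peaks limited to q-values up to 1e-10 or p-values up to 0.00001, with 50% reciprocal overlap, with other promoter windows, starts and flanks, and with 6 genes added to the cardiac list. The overlap code was tested on simulated data. Scripts ran under Python 3.11.15 with pandas 2.3.3, NumPy 2.4.6 and SciPy 1.17.1, and Matplotlib 3.10.9 drew the plots.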

Additional observations from a re-analysis of the deposited data

How the results depend on the processing

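No paired analysis was possible because only 1 group was profiled. Counts of members with a promoter region, a promoter of at least 10, a distal region in the body or a region in the locus stayed within 1.5 times the reported count under every alternative run. This limit is wide, and counts near the total could not pass it upward. With q-values up to 1e-10, members with a promoter region fell from 72 to 60 and cardiac ones from 20 to 16. Members with a distal region in the body fell from 60 to 46. The median density of cardiac members, 8.01 regions per 100 kb, was 3.80 with q-values up to 1e-10, 7.18 under 50% reciprocal overlap, 7.41 with flanks of 20 kb, 6.55 with flanks of 100 kb, 7.44 without regions at starts of other genes and 7.49 with the wider cardiac list. That of the other members, 4.38, was 2.11, 3.86, 4.49, 4.73, 4.02 and 4.34 under the same settings and 4.14 with p-values up to 0.00001. With a single replicate the medians ran from 8.997 to 9.35 and from 5.35 to 5.36. The stricter limits and the single lists change how many regions enter. The cause of the other changes was not tested. The cardiac median was above that of the other members under each of these settings. The values have no counting interval, and 2 replicates bound them only loosely.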
